A study of Mus musculus with 6 samples.

Results

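The gate from G1 into S phase is described here through 10 genes: the D cyclins *Ccnd1*, *Ccnd2* and *Ccnd3*, their kinases *Cdk4* and *Cdk6*, the CDK inhibitors *Cdkn1a* (p21), *Cdkn1b* (p27), *Cdkn2c* (p18) and *Cdkn2d* (p19), and the retinoblastoma gene *Rb1*. They were taken by name, with earlier results of these data known, from the 27179 genes of the count table, and all 10 were among the 11005 genes with enough reads to be tested. RNA-seq was performed on germinal center (GC) B cells from the spleens of C57BL/6 mice that were either WT or lacked the IL-21 receptor (Il21r-/-), all immunized with the protein antigen NP-KLH in alum. There was 1 library from each genotype on days 7, 10 and 14, 6 in all. Per the study's methods the cells were sorted as NP-binding, class-switched IgG1+ cells without CD38. The sample descriptions assign an independent mouse to each library, whereas the methods give a larger number of mice per genotype, so the number behind a library is not settled. For nearly all of its experiments the study states that irradiated congenic hosts had been reconstituted with WT or Il21r-/- bone marrow. The sample descriptions do not mention this, so whether both groups share it is not settled, nor whether other host cells kept the receptor. Age is given only as a range for the whole study, with mice matched for age, and not for each group. The comparisons ask whether the genes that set entry into S phase differ between GC B cells with and without IL-21 signaling, and across the days of the response.

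D cyclins bind Cdk4 and Cdk6, and the active kinases phosphorylate the Rb protein, which then releases E2F factors to switch on the genes of DNA replication. INK4 proteins, among them p18 and p19, bind Cdk4 and Cdk6 and keep D cyclins off, whereas the CIP/KIP proteins p21 and p27 bind whole cyclin-kinase complexes and restrain above all those of Cdk2. In the GC, cyclin D3 is the D cyclin on which the division of B cells in the dark zone (DZ) is known to depend, and light zone (LZ) cells pass through this gate after T cell help.

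The 6 libraries held 21353438 to 27435124 reads counted on genes. The targeted gene, *Il21r*, was present in Il21r-/- at 30.6% to 48.5% of the WT level of its day. The GC B cell markers were all tested, with summed levels of 7474 to 10050 CPM (reads scaled by the TMM-adjusted library size), while *Elane*, *Cxcl13*, *Col1a1* and *Col3a1*, markers of myeloid and stromal cells, had no read in any library. Of the other markers, 2 of 8 for T cells (summed 85.3 to 122 CPM), 2 of 8 for myeloid cells (1.91 to 6.98), 3 of 6 for erythroid cells (4.80 to 33.6), 1 of 6 for stromal cells (24.0 to 65.8) and 5 of 7 for plasma cells (2624 to 3727) passed the limit for testing. The Il21r-/- library of day 10 stood apart in its influence on the tests (651 genes were called for genotype with it and 2165 without it), and results that turn on it are given with and without it. The day pairs the libraries, so calls from a fit with day as a block are printed where they differ. Positive log2 fold changes mean higher in WT. In bulk libraries, fewer cells with a transcript and less of it per cell cannot be told apart.

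The promoters of 3 inhibitors are shown first because their genes carried the differences reported below: *Cdkn1b* and *Cdkn2c* were higher in each Il21r-/- library than in each WT library, and *Cdkn1a* rose with day. Each run is the 250 bases before the first RefSeq start (GRCm38.p6), read on the strand of the gene: chr6:134920151-134920400, plus strand, for *Cdkn1b*, chr4:109666757-109667006, minus strand, for *Cdkn2c*, and chr17:29090729-29090978, plus strand, for *Cdkn1a*. Capitals mark matches to the p53 half-site. *Cdkn1a* and *Cdkn2c* each have 2 listed starts.
Cdkn1b: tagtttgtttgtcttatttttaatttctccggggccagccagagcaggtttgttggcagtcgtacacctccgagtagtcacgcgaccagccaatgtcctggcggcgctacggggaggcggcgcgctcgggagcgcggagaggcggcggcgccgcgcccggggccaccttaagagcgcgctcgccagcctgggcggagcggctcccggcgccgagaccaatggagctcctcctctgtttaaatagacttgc
Cdkn2c: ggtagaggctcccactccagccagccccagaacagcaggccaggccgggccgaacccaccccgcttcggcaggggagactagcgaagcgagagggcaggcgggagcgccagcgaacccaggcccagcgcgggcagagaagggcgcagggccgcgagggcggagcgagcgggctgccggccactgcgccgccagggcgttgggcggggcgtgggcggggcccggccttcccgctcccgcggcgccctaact
Cdkn1a: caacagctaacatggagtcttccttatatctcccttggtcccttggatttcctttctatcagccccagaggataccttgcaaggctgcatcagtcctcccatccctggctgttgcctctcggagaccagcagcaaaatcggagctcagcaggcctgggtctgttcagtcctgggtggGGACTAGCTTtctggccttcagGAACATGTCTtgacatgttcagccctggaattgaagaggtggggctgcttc

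Both strands of 32851 promoters of this length were searched for TTTCCCGC and TTTGGCGC (E2F), GTAAACA (FOXO), TTCNNNGAA (STAT) and the p53 half-site of 10 letters, the last added after the *Cdkn1a* sequence had been read. They were found in 0.895%, 0.417%, 3.17%, 7.02% and 7.13% of all promoters. Among the 7 members with a promoter in the table, the half-site was found in *Cdkn1a* (2 matches, beginning 73 and 51 bases before its first start) and *Cdkn2d* (102 bases before), and the FOXO letters in *Ccnd3* (243 bases before its first start, minus strand). The windows before the second listed starts of *Cdkn1a* and *Ccnd3* held no match. *Cdkn1b*, *Cdkn2c*, *Cdk4* and *Cdk6* held none of these letters in the window. *Ccnd1*, *Ccnd2* and *Rb1* are named only. A match of letters is a description of the sequence and not a bound site.

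Per kilobase of transcript, the genes fell into clear tiers. In RPKM (CPM divided by transcript length), averaged over the 6 libraries, *Cdk4* stood at 347, *Ccnd3* at 139.7, *Cdkn2d* at 66.4 and *Cdkn2c* at 46.0, which placed them above 97.1%, 92.6%, 85.6% and 80.5% of the tested genes. *Cdkn1b* followed at 7.38 and *Rb1* at 3.87, and *Cdk6* (1.71), *Ccnd2* (1.38), *Cdkn1a* (0.912) and *Ccnd1* (0.480) were near the bottom, *Ccnd1* above only 3.73% of tested genes. *Cdk4* was above *Ccnd3*, and *Ccnd3* above *Cdkn2d*, in each of the 6 libraries with no overlap of their ranges. The ranges overlapped between *Cdkn2d* and *Cdkn2c*, between *Cdkn1b* and *Rb1*, and along the chain from *Cdk6* through *Ccnd2* and *Cdkn1a* to *Ccnd1*, although within a library *Cdkn2d* was above *Cdkn2c*, and *Cdkn1b* above *Rb1*, in 6 of 6.

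**Figure D1:**
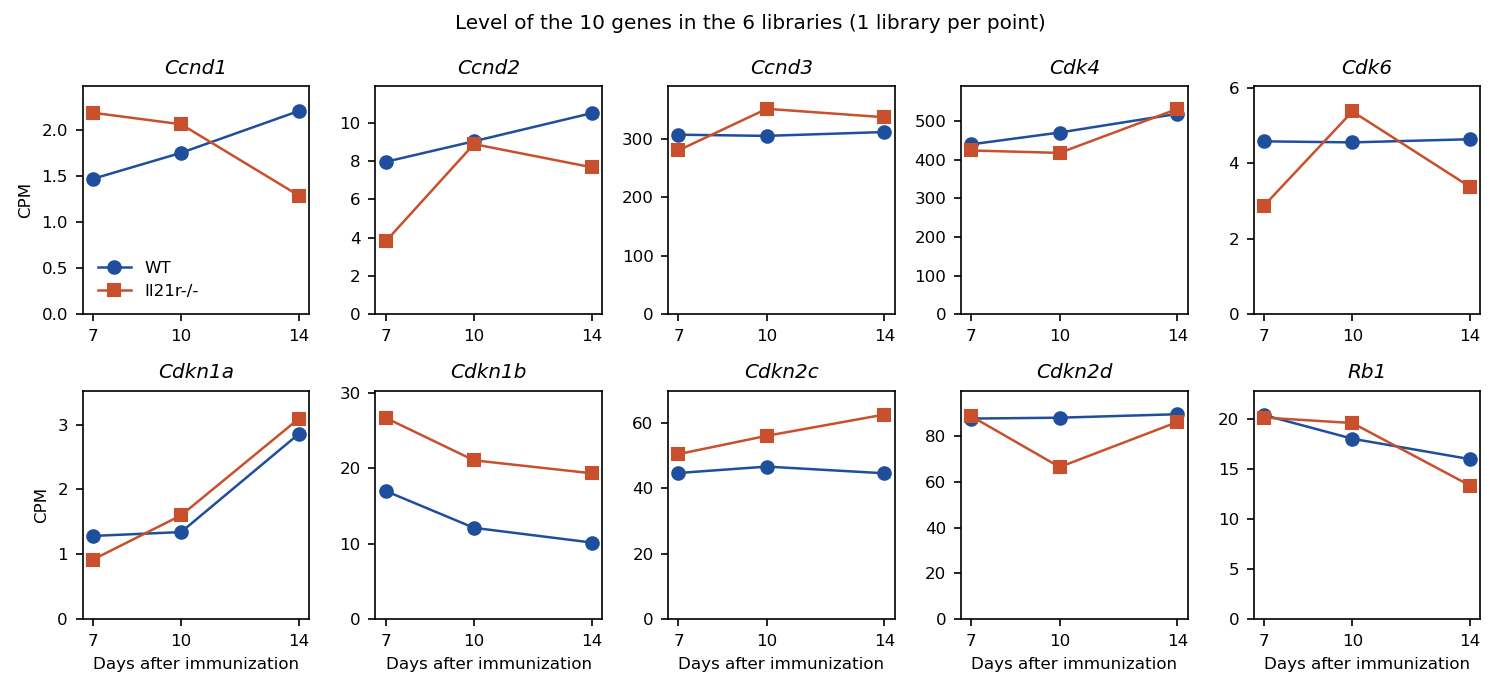
Level of each of the 10 genes in CPM (vertical axis from 0, its own scale in each panel) against days after immunization, with WT as blue circles, Il21r-/- as orange squares and 1 library per point. Cdkn1b and Cdkn2c are the genes whose orange points lie above the blue ones on every day with no overlap between genotypes, and Cdkn1a is higher on day 14 than on day 7 in both.

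The D cyclins of these cells were cyclin D3 transcripts almost alone. *Ccnd3* (chromosome 17, 47505051 to 47599689, GRCm38) was at 307, 305 and 312 CPM in WT on days 7, 10 and 14, and at 281, 352 and 337 CPM in Il21r-/-. The Il21r-/- values lay on both sides of the WT values, and the genotype effect was −0.07 on the log2 scale (95% interval −0.30 to 0.17, adjusted p = 0.774 by edgeR's quasi-likelihood test). By RPKM, *Ccnd3* made up 98.5% ± 0.214 of the D cyclin sum in WT and 98.9% ± 0.170 in Il21r-/- (SD, n = 3 days each, exact permutation test, two-sided, p = 0.2, adjusted 0.3 over the 6 shares tested). The gene overlaps *Bysl*, and without knowledge of the strand setting reads of overlapping genes cannot be assigned with certainty.

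*Ccnd2*, the D cyclin that resting B cells induce on activation, was low, and its call depended on how day was modelled. Its levels were 7.95, 9.03 and 10.5 CPM in WT and 3.80, 8.88 and 7.67 CPM in Il21r-/- on days 7, 10 and 14. On each day Il21r-/- had the lower value, but the genotypes overlapped over the days, and on day 10 they were nearly level at 98.4% of WT. The log2 fold change over 3 days was 0.45 (standard error, SE, 0.233, by edgeR's quasi-likelihood test adjusted p = 0.310). With day as a block it was 0.48 (SE 0.168, adjusted p = 0.0412, with 22.9% of all genes called). Without the Il21r-/- library of day 10 it was 0.75 (adjusted p = 0.0112, with 2165 genes called). Without the Il21r-/- library of day 7 it was 0.20 (adjusted p = 0.589). The largest single difference was on day 7, where the level in Il21r-/- was 47.7% of that in WT, from 87 against 217 reads. It had a log2 fold change of 1.07 (SE 0.444, adjusted p = 0.553 by edgeR's likelihood ratio test), which became a call when the dispersion was estimated with day as a block (adjusted p = 0.0355, 2.75% of all genes called) or without the Il21r-/- library of day 10 (adjusted p = 0.0372).

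*Ccnd1*, which lymphocytes use little, was close to the limit of detection, with 32 to 54 reads per library. The gene overlaps *LTO1*, which had more reads (249 to 387), and reads of the overlap cannot be assigned with certainty. The level of *Ccnd1* and its course over the days carry this limit. It was at 1.47, 1.75 and 2.20 CPM in WT and 2.18, 2.06 and 1.29 CPM in Il21r-/- on days 7, 10 and 14. The values ran upward in WT and downward in Il21r-/-, and the Poisson 95% intervals of the highest and the lowest, 1.62 to 2.93 and 0.879 to 1.81 CPM, overlapped. The slopes differed by 0.19 per day on the log2 scale (SE 0.0825, unadjusted p = 0.0504, adjusted p = 1 by edgeR's quasi-likelihood test). Such intervals leave out the variation between libraries. They can also understate the counting error, because reads that carry no molecular identifier can be copies of 1 molecule.

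Of the kinases that D cyclins activate, *Cdk4* outnumbered *Cdk6*, and neither passed the test of genotype. *Cdk4* (chromosome 10, 127063535 to 127067288) was at 440, 471 and 519 CPM in WT and at 424, 418 and 532 CPM in Il21r-/-. The genotypes overlapped, with a log2 fold change of 0.06 (95% interval −0.16 to 0.28, adjusted p = 0.773). In both genotypes day 14 was the highest, and the slope was 0.04 per day (SE 0.0171, adjusted p = 0.184), which passed with day as a factor (day 14 minus day 7, adjusted p = 0.0203, with 26.2% of all genes called). *Cdk6* was at 4.58, 4.55 and 4.64 CPM in WT, a narrow span, and at 2.88, 5.37 and 3.37 CPM in Il21r-/-. The Il21r-/- values lay below WT on days 7 and 14 and above it on day 10, and the genotype effect was 0.24 on the log2 scale (SE 0.246, adjusted p = 0.630). Without the Il21r-/- library of day 10 the effect was 0.56 (adjusted p = 0.0773 by edgeR's quasi-likelihood test). *Cdk4* was 99.5% of the summed RPKM of both kinases in each genotype. *Cdk4* overlaps *Tspan31* (383 to 835 reads), a small number beside the reads of *Cdk4*.

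Among the inhibitors, p27 showed the clearest difference of the 10 genes. *Cdkn1b* (Entrez 12576, chromosome 6, 134920401 to 134925525) encodes p27, which accumulates in resting cells and is degraded on entry into S phase. It was at 17.0, 12.1 and 10.2 CPM in WT and at 26.7, 21.1 and 19.4 CPM in Il21r-/- on days 7, 10 and 14, from 217 to 612 reads. The lowest Il21r-/- library stood above the highest WT library, and the excess in Il21r-/- was 1.57-fold, 1.74-fold and 1.90-fold on the successive days. Over 3 days the log2 fold change was −0.79 (SE 0.130, adjusted p = 0.0107 by edgeR's quasi-likelihood test), a level 1.73-fold higher in Il21r-/-. With day as a block it was −0.79 (SE 0.116, adjusted p = 5.96e-06). Leaving out a day 14 library ended the call, at −0.77 without WT (adjusted p = 0.122) and −0.68 without Il21r-/- (adjusted p = 0.0636), while the direction stayed.

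*Cdkn1b* was the 1 member of 10 called for genotype, beside 5.92% of all tested genes, with 4.52% higher in Il21r-/- and 1.4% higher in WT. With day as a block 3 members were called, *Cdkn1b* and *Cdkn2c* higher in Il21r-/- and *Ccnd2* higher in WT, beside 22.9% of all genes, so that the share of members was near the background. Tested on each day by edgeR's likelihood ratio test, *Cdkn1b* had log2 fold changes of −0.65 (SE 0.262, adjusted p = 0.468), −0.80 (SE 0.267, adjusted p = 0.0773) and −0.93 (SE 0.273, adjusted p = 0.0259) on days 7, 10 and 14. The day 10 difference was called when the dispersion was estimated with day as a block (adjusted p = 0.00553, 7.47% of all genes called), and the day 14 call was lost when WT on day 10 was left out of the dispersion (adjusted p = 0.0666). The numbers of members called were 0, 0 and 1, beside 1.07%, 3.1% and 3.28% of all genes, and on day 14 2.55% of all genes were called in the direction of *Cdkn1b*. At an unadjusted p under 0.05 there were 2 members on day 7, *Ccnd2* and *Cdkn1b*, 1 on day 10, *Cdkn1b*, and 2 on day 14, *Cdkn1b* and *Cdkn2c*, beside 5.51%, 10.8% and 12.1% of all genes.

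**Figure D2:**
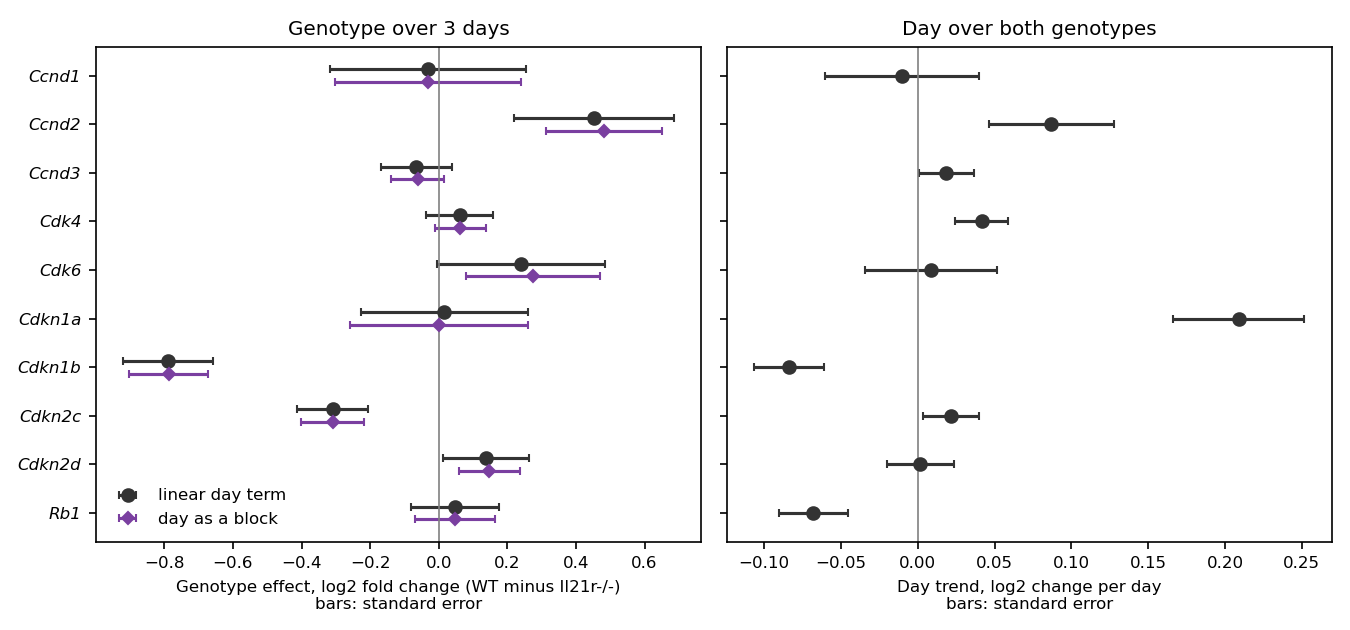
Left, genotype effect of the 10 genes as log2 fold change (WT minus Il21r-/-) with a linear day term (black circles) and with day as a block (purple diamonds). Right, change per day over both genotypes on the log2 scale. Bars are standard errors from edgeR, on 6 libraries. Cdkn1b lies farthest from zero on the left at −0.79, and Cdkn1a on the right at 0.21 per day.

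The INK4 gene *Cdkn2c* (chromosome 4, 109660876 to 109666756) differed in the same direction as *Cdkn1b*, by a smaller amount. The protein, p18, inhibits Cdk4 and Cdk6 and is known in B cells for its part in plasma cell differentiation. Its levels were 44.7, 46.6 and 44.6 CPM in WT and 50.5, 56.0 and 62.6 CPM in Il21r-/- on days 7, 10 and 14. All 3 Il21r-/- libraries were above all 3 WT libraries, an ordering that *Cdkn1b* shared and that 10% of all tested genes showed. The log2 fold change over 3 days was −0.31 (SE 0.104, adjusted p = 0.130), and with day as a block −0.31 (SE 0.0931, adjusted p = 0.0147). Of the 6 fits with 1 library left out, only that without Il21r-/- on day 10 called it (−0.31, adjusted p = 0.0491), when 2165 genes were called. Without the day 14 library of WT it was −0.22 (adjusted p = 0.597), and without that of Il21r-/- −0.24 (adjusted p = 0.557).

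*Cdkn2d*, the other abundant INK4 gene and known to oscillate with the cell cycle, did not pass the test of genotype. It was at 87.7, 88.1 and 89.6 CPM in WT and at 88.7, 66.5 and 86.2 CPM in Il21r-/-. Only the Il21r-/- library of day 10 departed from the others, at 75.5% of WT, and the log2 fold change over 3 days was 0.14 (95% interval −0.15 to 0.42, adjusted p = 0.580). Without that library it was 0.02 (adjusted p = 0.918 by edgeR's quasi-likelihood test). The balance within the pair accordingly differed: *Cdkn2c* made up 37.1% ± 0.732 of the RPKM of both genes in WT and 44.7% ± 4.88 in Il21r-/- (SD, n = 3 days each), without overlap. The exact permutation test, two-sided, gave p = 0.1, the smallest p that 3 against 3 allows, and 0.2 after adjustment over the 6 shares tested. The share in WT minus that in Il21r-/- was −7.69 percentage points, and −10.3 to −5.46 with 1 library left out. Its Il21r-/- value was highest on day 10, at 49.2%.

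*Cdkn1a* did not follow genotype but rose with day. It encodes p21, a classical target of p53. Its levels were 1.28, 1.34 and 2.86 CPM in WT and 0.916, 1.60 and 3.09 CPM in Il21r-/- on days 7, 10 and 14, from 21 to 77 reads. Day 14 was the highest in both genotypes, at 2.23 times day 7 in WT and 3.37 times in Il21r-/-. The slope was 0.21 per day on the log2 scale (SE 0.0427, adjusted p = 0.0296 by edgeR's quasi-likelihood test), a 2.76-fold rise from day 7 to day 14, and the genotype effect was 0.02 (95% interval −0.54 to 0.57, adjusted p = 0.978). It was the 1 member called for day, beside 4.43% of all genes in either direction and 1.07% that rose. The WT step from day 7 to day 10, on 35 and 33 reads, was within counting error (Poisson 95% intervals 0.893 to 1.78 and 0.924 to 1.88 CPM). An ascent of the level from each day to the next in both genotypes, as *Cdkn1a* had, was found in 5.72% of all genes. The rise was no longer called when any of the libraries of day 7 or day 14 was left out, with slopes of 0.18 to 0.26 and adjusted p from 0.108 to 0.264.

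*Cdkn1b* and *Rb1* had lower levels on later days. *Cdkn1b* on day 14 was at 59.8% of its day 7 level in WT and 72.5% in Il21r-/-, with a slope of −0.08 per day (SE 0.0227, adjusted p = 0.0708). *Rb1*, the substrate of the kinases, was at 20.4, 18.0 and 16.0 CPM in WT and 20.1, 19.6 and 13.3 CPM in Il21r-/-. Its values descended from day to day in both genotypes, as 11.2% of all genes did, with a slope of −0.07 per day (SE 0.0224, adjusted p = 0.122) and a genotype effect of 0.05 (SE 0.128, adjusted p = 0.876). With day as a factor in place of a line, 5 members passed for day 14 minus day 7, beside 26.2% of all genes: *Cdkn1a*, *Ccnd2* and *Cdk4* higher on day 14, and *Cdkn1b* and *Rb1* lower. On the line, *Cdkn1b*, *Rb1* and *Ccnd2* passed once the Il21r-/- library of day 10 was left out (slopes of −0.08, −0.07 and 0.10, adjusted p = 0.0119, 0.0308 and 0.0244), when 2177 genes were called in place of 488. Without the Il21r-/- library of day 7 the slope of *Ccnd2* was 0.03 (adjusted p = 0.581). The share of *Cdkn1b* in the RPKM of the 3 CIP/KIP genes went from 88.3% to 81.0% and 65.0% in WT, and from 91.3% to 84.4% and 75.3% in Il21r-/-. The third gene of that sum is *Cdkn1c*.

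No member had a day trend that differed between the genotypes by edgeR's quasi-likelihood test. The count was 0 of 10 and 0 of 11005 genes at an adjusted p under 0.05, also by DESeq2, and 0 members and 118 genes at an unadjusted p under 0.05. For *Cdkn1b* the slopes differed by −0.04 per day (SE 0.0496), and for *Cdkn2c* by −0.05 (SE 0.0393). The increase in their excess from day 7 to day 14 was therefore not called.

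**Figure D3:**
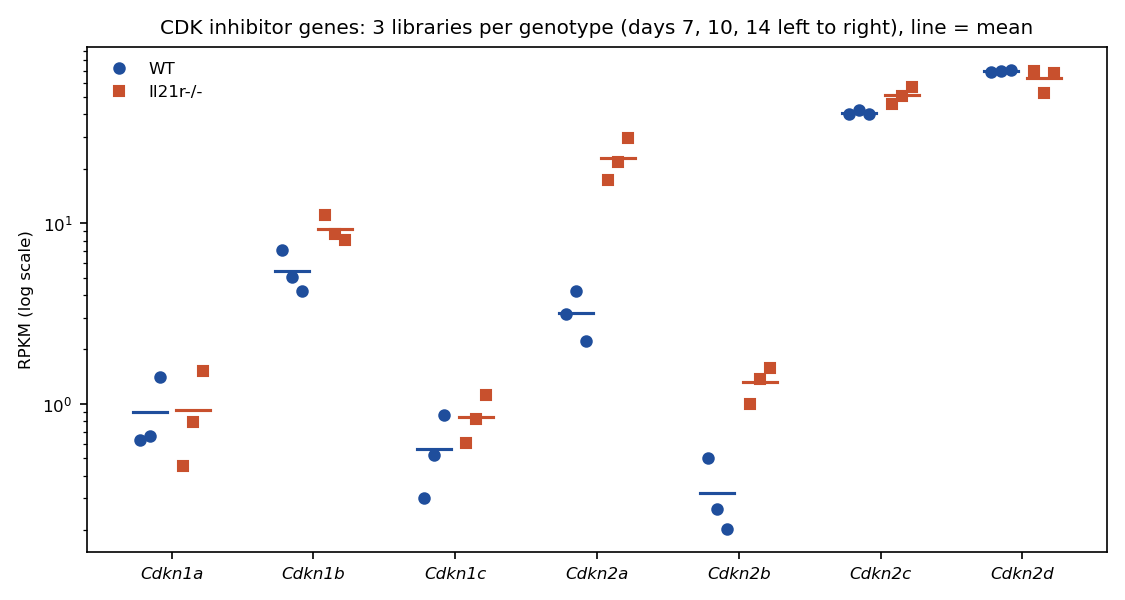
RPKM on a log axis of the 7 CDK inhibitor genes, with WT in blue circles, Il21r-/- in orange squares, days 7, 10 and 14 from left to right within a group and a line at the mean of the 3 libraries. Cdkn2c and Cdkn2d are the most abundant in both genotypes, and Cdkn2a and Cdkn2b show the widest gap between genotypes. Cdkn2b passed the limit for testing only through its Il21r-/- libraries.

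Of the 3 remaining inhibitors of both families, which belong to the list of 26 other G1 to S genes, *Cdkn2a* and *Cdkn2b* were called higher in Il21r-/- and *Cdkn1c* (p57) was not called. *Cdkn2a* (chromosome 4, 89274473 to 89294619), whose locus gives the INK4 protein p16 and the p53 activator ARF, was at 3.55, 4.76 and 2.53 CPM in WT and 19.8, 24.7 and 33.5 CPM in Il21r-/-. No WT value came near the Il21r-/- values, and the log2 fold change was −2.81 (SE 0.249, adjusted p = 0.000887). The counts do not separate p16 from ARF. Its neighbour *Cdkn2b* (p15) was at 0.696, 0.366 and 0.281 CPM in WT and 1.40, 1.91 and 2.21 CPM in Il21r-/-, with a log2 fold change of −1.99 (SE 0.389, adjusted p = 0.0177) on 6 to 55 reads. Its WT values alone were under the limit for testing, an average log2 CPM of 0. *Cdkn2b* was thus tested only through the group where it is high, and its call cannot be separated from that filter. *Cdkn1c* was at 0.586, 1.02 and 1.69 CPM in WT and 1.18, 1.60 and 2.17 CPM in Il21r-/-, with overlap between the genotypes and a log2 fold change of −0.64 (SE 0.250, adjusted p = 0.185). Through these genes and *Cdkn2c*, the RPKM sum of the 4 INK4 genes was 113.0, 115.9 and 113.2 in WT and 133.8, 126.1 and 155.4 in Il21r-/-. *Cdkn2a* made up 2.78% ± 0.823 of it in WT and 16.4% ± 3.05 in Il21r-/- (SD, n = 3, exact permutation test, two-sided, p = 0.1, adjusted 0.2). *Cdkn2d* remained the largest term in every library.

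The rest of the G1 to S list held 1 gene higher in WT and 1 more higher in Il21r-/-. *Ccne1*, cyclin E1, the partner of Cdk2, was at 44.0, 56.6 and 55.4 CPM in WT and 36.7, 34.9 and 37.3 CPM in Il21r-/- (log2 fold change 0.51, SE 0.116, adjusted p = 0.0379). *Fbxw7*, whose product directs cyclin E and other proteins to degradation, was at 18.9, 24.7 and 27.4 CPM in WT and 30.5, 55.6 and 42.2 CPM in Il21r-/- (log2 fold change −0.86, SE 0.188, adjusted p = 0.0328). Both genes separated the genotypes without overlap, as did 8.33% of all genes with WT above and 10% with Il21r-/- above. In all, 1 of 26 was called toward WT and 3 toward Il21r-/-, beside 1.4% and 4.52% of all genes. Of the 3, *Cdkn2b* was tested only through its Il21r-/- libraries, so its call adds no evidence to the count. Of the 26 values 16 were positive, with a median of 0.09, against a median of −0.01 over all genes, 48.2% of them positive. Modelling day as a block gave 10 calls toward WT and 3 toward Il21r-/-, beside 22.9% of all genes in either direction.

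Downstream of the gate, the S phase list had 2 of 20 genes called higher in WT, beside 1.4% of all genes. Among them was *Rrm2* (0.48, SE 0.0989, adjusted p = 0.0273), a subunit of the enzyme that makes deoxyribonucleotides. All 20 values were positive, with a median of 0.38. At an unadjusted p under 0.05 there were 17, each higher in WT, beside 21.4% of all genes in either direction. Thymidylate synthase, *Tyms*, rose with day (0.11 per day, SE 0.0162, adjusted p = 0.0119). Of the 20 G2 and M phase genes, 0 were called by edgeR's quasi-likelihood test, with 20 of 20 positive and a median of 0.38. There were 14 with an unadjusted p under 0.05, beside 21.4% of all genes. When day was a block, 17 S phase and 16 G2 and M genes were called, each higher in WT, beside 22.9% of all genes in either direction. On the same scale *Ccnd3* and *Cdk4* lay at −0.07 and 0.06.

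Of 18 known regulators of D cyclins and CDK inhibitors, 2 were called, both higher in Il21r-/-, beside 4.52% of all genes. *Foxo3*, a forkhead factor known to activate *Cdkn1b*, was at 4.40, 3.17 and 2.90 CPM in WT and 6.68, 6.82 and 5.38 CPM in Il21r-/- (log2 fold change −0.86, SE 0.174, adjusted p = 0.0242). *Klf2*, a factor of quiescent lymphocytes, was at 17.9, 11.1 and 8.38 CPM in WT and 38.8, 23.7 and 15.01 CPM in Il21r-/- (−1.02, SE 0.132, adjusted p = 0.00386), and it fell with day (−0.18 per day, SE 0.0231, adjusted p = 0.00880). In *Foxo3* the genotypes did not overlap, with Il21r-/- above WT as in 10% of all genes. In *Klf2* the Il21r-/- library of day 14 was below the WT library of day 7. A link between the levels of *Foxo3* and *Cdkn1b* was not tested. The other 16 regulators were not called. With day as a block the counts were 4 toward WT (*Bcl6*, *Stat3*, *Tcf3* and *Tcf4*) and 3 toward Il21r-/- (*Foxo3*, *Klf2* and *Tgfbr1*). Over all genes the block called 22.9% in either direction. The median over the list was 0.06, with 11 of 18 positive.

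Genes that p53 is known to activate were examined because *Cdkn1a* is 1 of them. Of the 18 others listed, 16 were tested, and 6 were called higher in Il21r-/- and 0 in the other direction, beside 4.52% and 1.4% of all genes. At an unadjusted p under 0.05 there were 8 toward Il21r-/- and 1 toward WT, beside 21.4% of all genes in either direction. Modelling day as a block gave 9 calls toward Il21r-/- and 1 toward WT, beside 22.9% of all genes in either direction. The 6 were *Ccng1* (−0.64, SE 0.107, adjusted p = 0.0117), *Sesn1* (−0.72, SE 0.116, adjusted p = 0.00974), *Sesn2* (−0.93, SE 0.140, adjusted p = 0.00705), *Plk2* (−0.80, SE 0.163, adjusted p = 0.0245), *Btg2* (−0.76, SE 0.156, adjusted p = 0.0275) and *Phlda3* (−2.06, SE 0.482, adjusted p = 0.0359). *Btg2*, an antiproliferative gene, also fell with day (−0.12 per day, SE 0.0273, adjusted p = 0.0490). The median was −0.38, with 2 of 16 positive, beside 0.02 for *Cdkn1a*. The interval of *Cdkn1a*, −0.54 to 0.57, includes the median of the list.

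**Figure D4:**
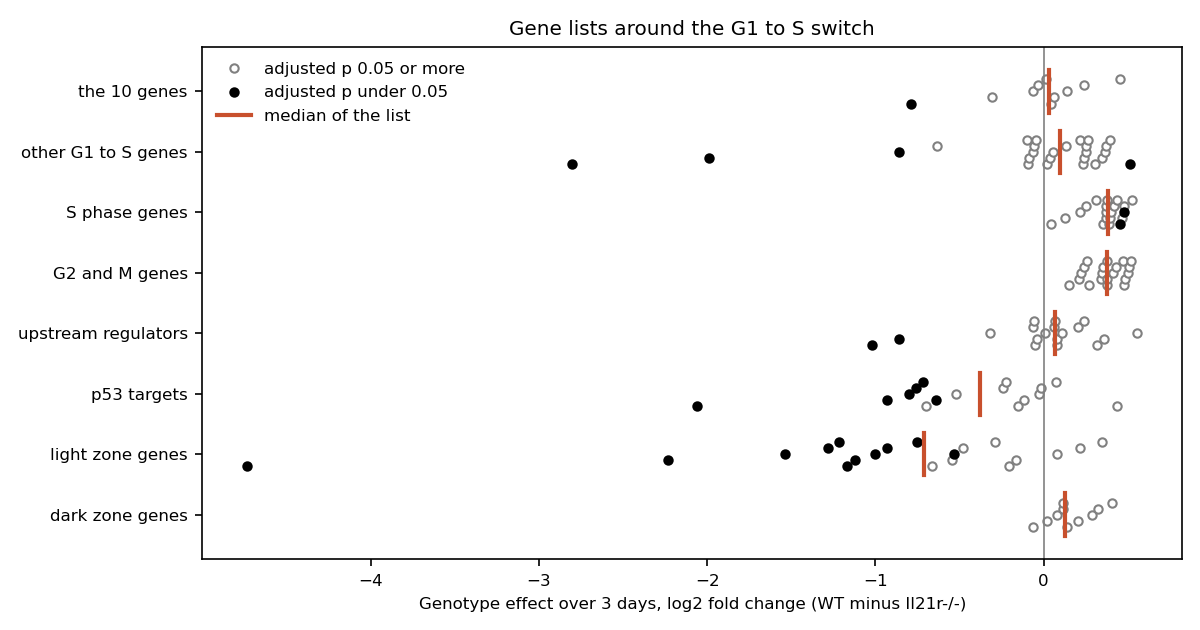
Genotype effect over 3 days (log2 fold change, WT minus Il21r-/-) of each tested gene in 8 lists, 1 point per gene, filled where edgeR's adjusted p was under 0.05, with an orange line at the median of each list. The 10 genes center at 0.03, S phase and G2 and M genes at 0.38, and p53 targets and light zone genes at −0.38 and −0.71.

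Markers of the zones and of other B cell states were compared in the same way. Of 20 LZ genes, 11 passed, each with the higher level in Il21r-/- (median −0.71), beside 4.52% of all genes, and 13 passed with day as a block. Those with the smallest p were the chemokine gene *Ccl22* (−4.74), *Gpr183* (−2.23), *Fcer2a* (−1.54), *Cd83* (−0.93), *Cd69* (−0.76) and the near-identical *Bcl2a1a* (−1.17), *Bcl2a1b* (−1.12) and *Bcl2a1d*, between which reads may be shared. *Gpr183* and *Fcer2a* also fell with day (−0.20 and −0.15 per day). The summed level of the LZ genes was 1470 to 2015 CPM in WT and 2956 to 3116 CPM in Il21r-/-. Of 10 DZ genes outside the cell cycle, 0 were called for genotype by edgeR's quasi-likelihood test (median 0.13, 9 of 10 positive). There were 3 with an unadjusted p under 0.05, beside 21.4% of all genes. With day as a block 4 were called, each higher in WT, beside 22.9% of all genes in either direction. *Gcsam* rose with day (0.09 per day, SE 0.0173, adjusted p = 0.0283). Of 7 markers of naive or memory B cells, 3 were called higher in Il21r-/-, among them *Ccr7* (−1.81) and *Fcer2a* (−1.54), and *Ighm* (0.48) was called higher in WT. Their summed level was 549.3 to 1197 CPM in WT and 911.4 to 1392 CPM in Il21r-/-, with day 7 the highest in both genotypes, as for *Cdkn1b*. *Ighm* and *Cd38* fell with day (−0.10 and −0.44 per day). Of the other marker lists, *Pax5* (−0.67), *Xbp1* (−0.39), *Cd5* (−2.10) and *Pecam1* (−0.60, and −0.14 per day) were called higher in Il21r-/- and *Prdm1* (1.64) in the opposite direction. The 10 GC B cell markers had 0 called toward WT and 1 toward Il21r-/-, and 1 and 4 with day as a block. The 5 tested plasma cell markers had 1 and 1, and 1 and 3 with the block. The counts of these and of the naive or memory markers stand beside 1.4% of all genes toward WT and 4.52% toward Il21r-/-. With the block, 22.9% of all genes were called in either direction. The part of LZ cells or of other B cell subsets in the *Cdkn1b* and *Cdkn2c* differences was not tested.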

How the data were processed

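RNA-seq was performed on sorted GC B cells in 6 libraries, 3 per genotype on days 7, 10 and 14. After base calling with CASAVA 1.8.2, the authors mapped the reads with Rsubread to mm10, counted them per gene with featureCounts, pooled technical replicates and deposited raw counts with gene lengths. Strand and multi-mapping settings are not given in the sources used here. Identifiers were named from RefSeq (25275 of 27179) and GENCODE (18 more).

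From the deposited counts, 137 Y-linked, *Xist* and Ig variable genes and those with an average log2 CPM under 0 were removed, and 11005 were tested with edgeR 4.0.16 in R 4.3.3, with TMM factors and robust dispersions (common biological coefficient of variation 13.1%). The quasi-likelihood test on genotype plus a linear day term gave the genotype effect and the day trend. Their interaction came from a separate fit with a genotype-by-day slope added, which leaves fewer residual degrees of freedom. The likelihood ratio test gave the effect on each day, where 1 library faces 1. P-values were adjusted by Benjamini-Hochberg over the 11005 genes (threshold 0.05). Intervals of 95% are unadjusted. RPKM used the deposited gene lengths. Shares were compared by exact permutation tests over 6 libraries (scipy 1.17.1), whose groups mix days. The p-values measure the spread between these libraries. The procedure was tested on simulated data, drawn without a day effect beyond a linear one, so the pairing by day was not covered. The outcome is not reported here.

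After the genotype mean was subtracted, libraries of a day correlated across genes with r = 0.64, 0.413 and 0.645 on days 7, 10 and 14, so the shared day pairs them, and genes are not independent replicates. All pairs of libraries differed beyond counting noise. The 10 members and the gene lists were chosen with earlier results of these data known. All members were named, Il21r as the targeted gene, and of each list up to 8 genes called for genotype or day by smallest p. Markers at 0 and regulators called only with the block were named after their values were seen. Single results of some list genes are not reported here. Alternatives were DESeq2's size factors, other filters (no filter, or 10 counts in every library), dispersion without robust estimation, DESeq2 1.42.0, edgeR's likelihood ratio test over 3 days, day as a factor, CPM in place of RPKM, and leaving out each library.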

Additional observations from a re-analysis of the deposited data

How the results depend on the processing

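With 1 library per genotype and day, the tests rest on few libraries and p-values depend on how day is modelled. The counts of *Ccnd1* and *Cdkn1a* are too low to show differences of modest size. For the genotype effect over 3 days, 651 genes were called, against 991 without a filter, 1193 with the likelihood ratio test and 2519 with day as a replicate block, which called 3 members in place of 1. Leaving out 1 library each gave 132 (without WT on day 14) to 2165 genes (without Il21r-/- on day 10) and 0 to 3 members. Day 7 gave 118 genes, and 303 genes and 1 member with the block in the dispersion (104 to 220 genes and 0 to 1 member with 1 library left out, the highest without Il21r-/- on day 10). Day 10 gave 341 genes, and 722 with the linear day term kept and 822 with the block in the dispersion, each with 1 member. Day 14 gave 361 genes and 1055 with that block (341 to 704 genes and 0 to 1 member with 1 library left out). The day trend gave 488 genes, against 869 without a filter (with 2 members), 870 by DESeq2, 3969 with day as a factor and 2880 for day 14 minus day 7 (each with 5 members), and 0 to 2177 genes and 0 to 4 members with 1 library left out. The interaction gave 0 to 12 genes with 1 library left out. In CPM, the shares of *Ccnd3* and *Ccnd2* among the D cyclins differed by −0.867 and 0.869 percentage points in place of −0.352 and 0.351.

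*Cdkn1b* was called for genotype under all 7 settings that kept the 6 libraries (−0.79 to −0.78), and *Cdkn1a* for day under all 7 (0.20 to 0.21). Apart from the *Ccnd2* and *Cdkn2c* calls already given, the block changed no call of a member gene in the genotype effect over 3 days. Uncalled values changed sign in these cases. *Cdkn1a* had a genotype effect of −2.59e-05 with the block. With the linear day term kept, *Cdkn2d* and *Rb1* were at 0.12 and −0.067 on day 7, *Cdk6* and *Rb1* at 0.23 and 0.018 on day 10, and *Cdk4* at 0.0092 on day 14. The *Cdkn2d* slope was −0.000874 with day as a factor. With 1 library left out, genotype effects spanned −0.36 to 0.23 for *Ccnd1*, −0.15 to 0.0058 for *Ccnd3*, −0.17 to 0.15 for *Cdkn1a* and −0.048 to 0.12 for *Rb1*. Slopes spanned −0.079 to 0.064 for *Ccnd1*, −0.037 to 0.045 for *Cdk6* and −0.019 to 0.028 for *Cdkn2d*. Slope differences spanned −0.34 to 0.10 for *Ccnd2*, −0.094 to 0.013 for *Ccnd3*, −0.058 to 0.052 for *Cdk4*, −0.29 to 0.17 for *Cdk6*, −0.23 to 0.031 for *Cdkn1a*, −0.098 to 0.020 for *Cdkn1b*, −0.094 to 0.15 for *Cdkn2d* and −0.026 to 0.084 for *Rb1*. The cause of these changes was not tested. Shares per RefSeq exon length were not run.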
